A study of Mus musculus with 16 samples.

Results

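This is a comparison of mouse brain with 2 alterations at once against mouse brain with neither: 4 RNA-seq libraries labelled Ch25h-/- Tau+ against 4 labelled Ch25h+/+ Tau-, chosen by their genotype labels, 8 of the 16 libraries of the series. Ch25h-/- stands for loss of Ch25h on both alleles and Ch25h+/+ for the intact gene, while Tau+ and Tau- give the presence or absence of altered tau as the labels have it. The remaining libraries carry 1 alteration each, Ch25h+/+ Tau+ (4) and Ch25h-/- Tau- (4). All 16 came from female mice of 9 months. The labels name the frontal cortex and the series' own text the hippocampus. Which tau alteration Tau+ stands for, any transgene's promoter and line, how Ch25h was deleted and whether the groups were littermates are not given in the sources used here. No label says whether the libraries of a group came from separate animals, so the p-values below measure the spread between these libraries, which may be technical.

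Ch25h encodes cholesterol 25-hydroxylase, a small enzyme of the endoplasmic reticulum that adds a hydroxyl group to cholesterol. Its product, 25-hydroxycholesterol, is an oxysterol that restrains cholesterol synthesis, feeds liver X receptor (LXR) signalling and alters membranes during infection. In the brain the gene is mainly a microglial one and is induced by interferon, the antiviral cytokine whose receptors switch on a wide set of interferon-stimulated genes. Tau, encoded by Mapt, binds axonal microtubules, and its aggregates in neurons are accompanied in mice by activation of microglia and astrocytes, complement, antigen presentation genes and interferon-stimulated genes. The comparison asks how far the brain with tau but without Ch25h lay from the unaltered one.

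The 4 Ch25h+/+ Tau- libraries held 18613344 to 23323733 counts each. Those of Ch25h-/- Tau+ held 15530352 to 25602500. The libraries of Ch25h-/- Tau+ were not alike, in a way the labels do not name. Replicates 2, 3 and 4 held 3729, 3886 and 2289 CPM (counts scaled to a library of standard size, here by total counts) of the ribosomal transcript CT010467.1, and replicate 1 held 153, against 168 to 281 in Ch25h+/+ Tau-. Malat1, a long nuclear noncoding RNA, was likewise at 617 to 654 CPM of total counts in replicates 2 to 4, at 236 in replicate 1 and at 179 to 290 in Ch25h+/+ Tau-. Mitochondrial transcripts made up 4.13% to 4.56% of counts in replicates 2 to 4, 3.09% in replicate 1 and 2.90% to 3.68% in Ch25h+/+ Tau-. Libraries above 1000 CPM of CT010467.1 are called rRNA-rich here. They were 7 in all, every one of them Ch25h-/-, so within the rRNA-rich class no Ch25h+/+ library exists for comparison, and within the other class Ch25h-/- Tau+ is represented by replicate 1 alone. Library class and Ch25h genotype therefore cannot be told apart beyond that single library, and values with a covariate for the class are given below for the genes past the threshold that lose their call and for the gene lists. In a fit without the rRNA-rich libraries the Ch25h-/- Tau+ arm is replicate 1 alone, which is then assumed to vary like the libraries of the other groups. With the class covariate, too, the log2 fold change of this comparison rests on replicate 1 alone against Ch25h+/+ Tau-. Neither fit therefore tests the part of library class.

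Ch25h itself (chr19:34473778-34475164, minus strand) checks the genotype labels. The 4 Ch25h+/+ Tau- libraries had 0.416, 0.547, 0.216 and 0.302 CPM on normalized library sizes (0.370 ± 0.144, SD, n = 4). All 4 Ch25h-/- Tau+ libraries had 0 counts, which allows up to 0.117 to 0.195 CPM at a limit of 3 counts, for counting error only. Ch25h was thus at least 2.21-fold lower, every library of one group lying under every library of the other, yet its adjusted p was 0.0561 and missed the threshold of 0.05 in the test across all genes. Mapt read 526, 591, 546 and 542 CPM in Ch25h+/+ Tau- and 550, 495, 501 and 505 CPM in Ch25h-/- Tau+, with overlap, and its log2 fold change of -0.10 ± 0.07 (SE) had an adjusted p of 0.463. As the sequence behind Tau+ is not given in the sources used here, the count of Mapt does not check the tau label.

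Few genes separated the groups. Of 17736 genes tested with edgeR's quasi-likelihood test at an adjusted p under 0.05 (Benjamini-Hochberg over all genes), 21 passed, or 0.118%. Of these, 10 were higher in Ch25h-/- Tau+ (0.0564%) and 11 lower (0.062%). Other readings of the same table were much wider: 3255 genes (18.4%) had an unadjusted p under 0.05, 1564 higher (8.82%) and 1691 lower (9.53%), and 2220 genes (12.5%) had no overlap between the 4 and 4 libraries, 1028 higher (5.8%) and 1192 lower (6.72%). A log2 fold change above 0 was seen for 52.3% of genes. Against the same Ch25h+/+ Tau- libraries, which all of these comparisons share, tau with intact Ch25h gave 277 genes past the threshold (1.56%), 261 of them higher (1.47%), and Ch25h loss without tau gave 182 (1.03%).

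The count of 21 moved with each library and with the method. Without Ch25h-/- Tau+ replicate 1 it was 985 (5.49% of the genes then tested), 330 higher (1.84%) and 655 lower (3.65%), and without replicate 2, 3 or 4 it was 6, 7 or 8. Leaving out Ch25h+/+ Tau- replicate 1, 2, 3 or 4 gave 9, 9, 7 and 8. DESeq2 called 739 genes (4.17%), 228 higher (1.29%) and 511 lower (2.88%). Limma-voom with quality weights called 2104 (11.9%), 887 higher (5%) and 1217 lower (6.86%). A fit of the 8 libraries alone called 441 (2.61%), 151 higher (0.894%) and 290 lower (1.72%), and one of all genes with at least 1 count called 321 (0.944%), 115 higher (0.338%) and 206 lower (0.606%). Counts of list members below, past a threshold, at an unadjusted p under 0.05 or without overlap of the groups, are to be read against the share of all genes under the same rule. With a covariate for the library class 4 genes passed, Prnp, Lamr1-ps1, Gbp2b and 4930590L14Rik, and with the rRNA-rich libraries left out 1 passed, Prnp.

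**Figure D1:**
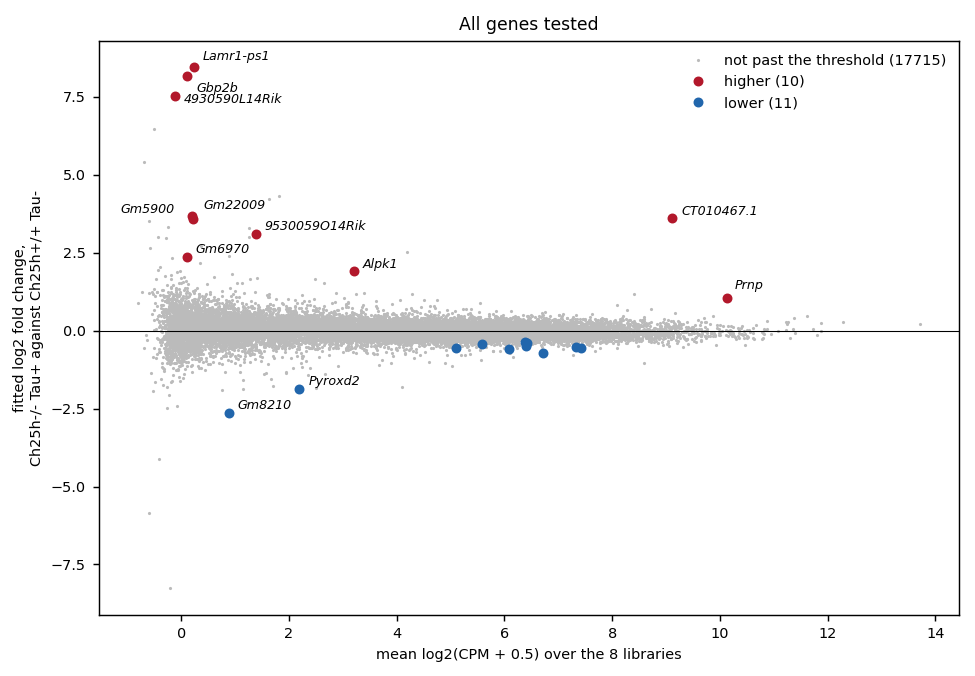
Fitted log2 fold change of Ch25h-/- Tau+ against Ch25h+/+ Tau- (vertical axis) by the mean level over the 8 libraries as log2(CPM + 0.5) (horizontal axis), 1 point per gene. Of the genes past the threshold, 10 above 0 and 11 below it are coloured. The 12 of them beyond 1 in absolute log2 fold change are named. The fitted values of Lamr1-ps1, Gbp2b and 4930590L14Rik, at 0 counts in Ch25h+/+ Tau-, depend on the fit's prior count and are no measure of size.

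Over whole profiles the doubly altered libraries lay little farther from the baseline than libraries of a group lay from each other. The root mean square difference in log2(CPM + 0.5) over the tested genes averaged 0.343 between pairs within Ch25h+/+ Tau- (0.317 to 0.362), 0.378 within Ch25h-/- Tau+ (0.339 to 0.411) and 0.397 between the groups (0.287 to 0.483). By library, Ch25h-/- Tau+ replicate 1 was the nearest to the baseline, at a mean of 0.324, below the mean within the baseline group, and replicates 2, 3 and 4 lay at 0.420, 0.412 and 0.431. Libraries with 1 alteration lay at 0.415 (Ch25h+/+ Tau+) and 0.412 (Ch25h-/- Tau-) from the same baseline libraries, and these pairs are not independent. The median absolute log2 fold change was 0.16 in the double comparison, 0.10 for tau with intact Ch25h and 0.17 for Ch25h loss without tau, each beside a median SE of 0.14. In all, 258 genes of the double comparison exceeded 1 in absolute log2 fold change, 12 of them past the threshold.

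**Figure D2:**
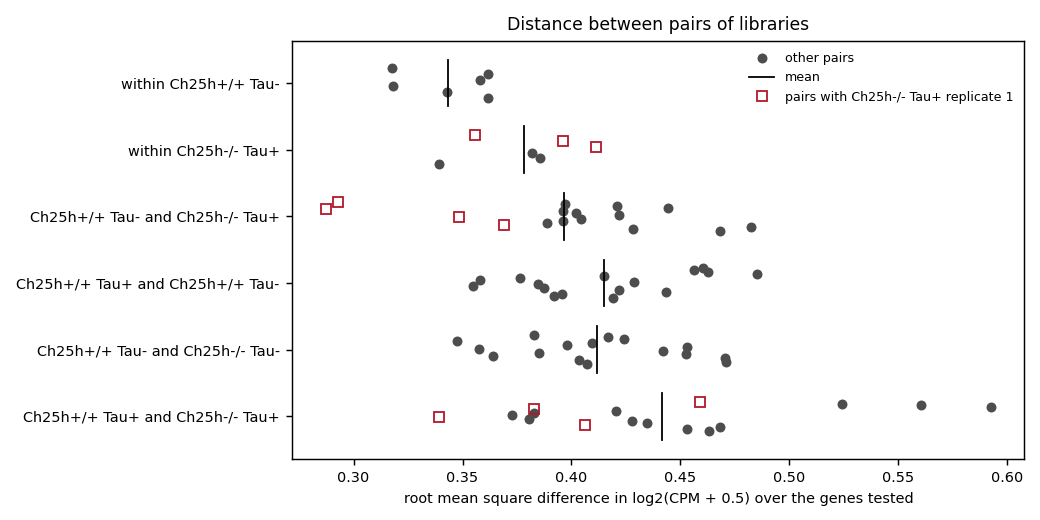
Root mean square difference in log2(CPM + 0.5) over the tested genes (horizontal axis) for pairs of libraries, by kind of pair (vertical axis), each point a pair and each bar the mean. Pairs with Ch25h-/- Tau+ replicate 1 are open squares and include the smallest difference between the groups, 0.287, while the farthest pair of these 2 groups is at 0.483.

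The rise that passed in the most alternative settings was that of Prnp, the gene of the cellular prion protein, a membrane-anchored glycoprotein of neurons (chr2:131909928-131938429, plus strand). Its sequences drive the transgene of a widely used tau mouse line. Prnp read 839, 748, 789 and 754 CPM in Ch25h+/+ Tau- (783 ± 41.7, SD, n = 4) and 1691, 1821, 1414 and 1554 CPM in Ch25h-/- Tau+ (1620 ± 175, SD, n = 4). All 4 doubly altered libraries lay far above the baseline, replicate 1 with the rest. The log2 fold change was 1.05 ± 0.09 (SE), with an adjusted p of 9.70e-06, and it passed in all 20 alternative settings. Side by side, the value was 1.10 for tau with intact Ch25h and -0.05 for Ch25h loss without tau. The processed pseudogene Lamr1-ps1, a laminin receptor copy just upstream of Prnp (chr2:131904086-131904959, plus strand), rose with it. It had 0 counts in the 4 baseline libraries and 2.504, 2.27, 1.99 and 2.37 CPM in the 4 Ch25h-/- Tau+ libraries, at least 15.7-fold higher against 3 counts, with an adjusted p of 9.70e-06. A pseudogene can take reads from near-identical copies, and Prnp overlaps the annotated readthrough gene Prn, so reads of these genes cannot be assigned with certainty.

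On chromosome 3, 4 of 908 tested genes passed, all higher (0.441% against 0.118% of all genes). Gbp2b, an interferon-inducible guanylate-binding GTPase that acts on intracellular pathogens (chr3:142594847-142619179, plus strand), had 0 counts in every baseline library and 1.06, 2.21, 2.10 and 2.19 CPM in Ch25h-/- Tau+ (1.89 ± 0.557, SD, n = 4). Replicate 1 was the lowest of the 4 but still had reads, and the rise was at least 12.95-fold (adjusted p 1.96e-05). The long noncoding RNA 4930590L14Rik (chr3:140951876-140953247, plus strand), at -1.64 Mb from Gbp2b, also went from 0 counts in all baseline libraries to 1.29, 1.17, 1.25 and 1.06 CPM, at least 8.18-fold higher (adjusted p 0.000427). Alpk1, an alpha-kinase that senses a bacterial sugar metabolite and feeds NF-kB signalling (chr3:127670310-127780527, minus strand), lies at -14.9 Mb from Gbp2b. It read 3.56, 4.54, 4.57 and 5.29 CPM at baseline and 15.4, 21.4, 15.7 and 14.7 CPM in Ch25h-/- Tau+, a log2 fold change of 1.90 ± 0.30 (SE, adjusted p 0.0142). No library of one group reached the other for any of these 3 genes. Side by side, Alpk1 was at 2.02 for tau with intact Ch25h and 1.12 for Ch25h loss without tau (adjusted p 0.0685). The Alpk1 call was lost with the class covariate (log2 fold change 1.78, adjusted p 0.9999) and when 4 of the 8 libraries were left out singly. Alpk1 overlaps small annotated transcripts, while Gbp2b and 4930590L14Rik overlap none. The other gene of chromosome 3, Gm22009, is described with the rRNA-rich libraries below.

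The promoter of Gbp2b is shown with those of Isg15 and Ifit3, common interferon-stimulated genes that did not pass, and of Prnp, to compare their interferon motifs. The core of the interferon-stimulated response element was searched as 2 copies of GAAA with any 2 bases between them, on both strands, in the 300 bases from 250 before to 50 after the start of transcription (RefSeq, GRCm38.p6). Capitals mark matches, which may overlap.
Gbp2b: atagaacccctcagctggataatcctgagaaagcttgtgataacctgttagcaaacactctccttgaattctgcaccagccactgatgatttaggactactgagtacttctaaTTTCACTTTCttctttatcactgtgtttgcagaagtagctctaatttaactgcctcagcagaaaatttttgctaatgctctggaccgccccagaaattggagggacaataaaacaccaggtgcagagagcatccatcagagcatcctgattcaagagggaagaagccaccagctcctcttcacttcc
Isg15: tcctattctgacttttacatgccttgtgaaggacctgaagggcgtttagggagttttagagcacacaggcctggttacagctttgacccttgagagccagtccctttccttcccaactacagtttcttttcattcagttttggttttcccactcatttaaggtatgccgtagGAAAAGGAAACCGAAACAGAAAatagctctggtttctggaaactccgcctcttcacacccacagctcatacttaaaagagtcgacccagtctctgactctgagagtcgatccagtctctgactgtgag
Ifit3: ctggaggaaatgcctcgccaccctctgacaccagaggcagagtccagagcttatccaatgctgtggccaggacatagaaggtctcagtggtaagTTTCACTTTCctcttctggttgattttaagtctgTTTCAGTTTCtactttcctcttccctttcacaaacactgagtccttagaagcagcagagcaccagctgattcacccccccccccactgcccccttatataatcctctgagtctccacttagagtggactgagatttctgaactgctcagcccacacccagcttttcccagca
Prnp: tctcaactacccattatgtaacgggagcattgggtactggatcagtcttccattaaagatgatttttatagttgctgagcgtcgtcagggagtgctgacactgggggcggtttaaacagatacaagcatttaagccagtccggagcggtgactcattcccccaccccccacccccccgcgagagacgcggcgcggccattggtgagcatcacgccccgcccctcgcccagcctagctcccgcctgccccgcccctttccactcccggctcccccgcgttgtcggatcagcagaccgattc
The windows are chr3:142594597-142594896 (plus strand), chr4:156200769-156201068 (minus strand), chr19:34583279-34583578 (plus strand) and chr2:131909678-131909977 (plus strand). Gbp2b had 1 match, on the minus strand at position -137 from its start, Isg15 had 3 overlapping matches on its own strand, Ifit3 had 2 on the minus strand and Prnp had 0. Matches were found in 3.44% of the 32851 promoters of the table, in 2.90% of those of 12354 tested genes and in 19 of 30 tested interferon-stimulated genes with an entry. The median log2 fold change in Ch25h-/- Tau+ was 0.42 for the 19 with a match and 0.40 for the 11 without one.

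**Figure D3:**
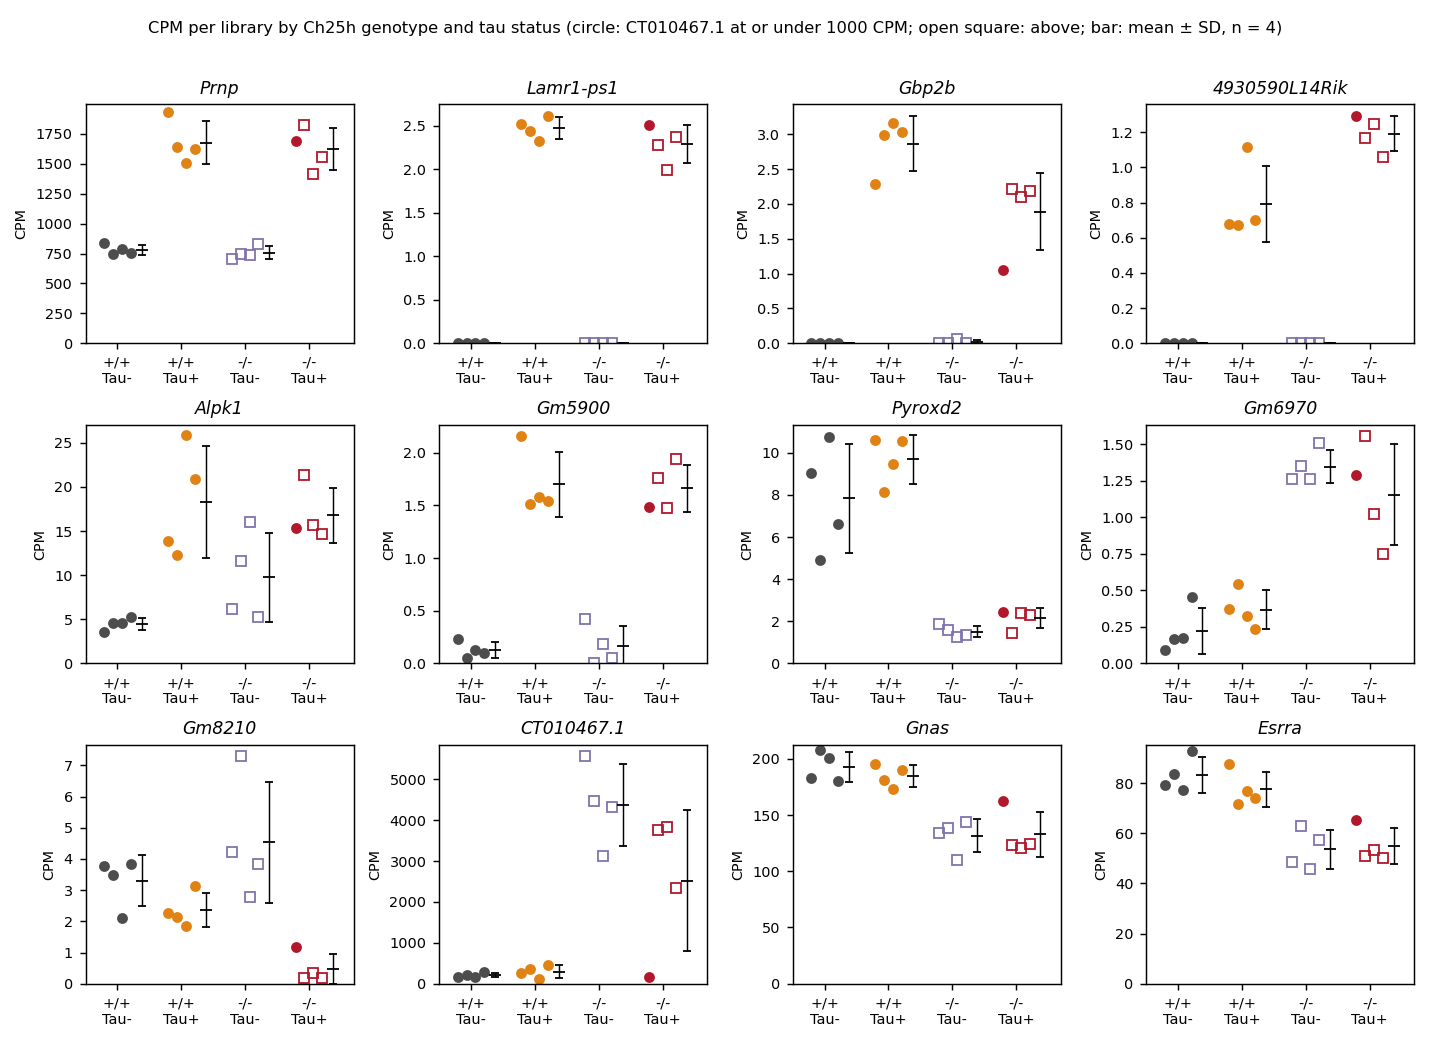
CPM on normalized library sizes (vertical axes) in each library of the 4 groups (horizontal axes) for 12 genes, circles for libraries at or below 1000 CPM of CT010467.1 and open squares above it, bars for mean ± SD (n = 4). Prnp and Alpk1 are high in all 4 Ch25h-/- Tau+ libraries, Pyroxd2 is low in all 4, and CT010467.1 is high in replicates 2 to 4 of that group and in all 4 Ch25h-/- Tau- libraries.

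Chromosome 19, which holds Ch25h, had 5 of 544 tested genes past the threshold (0.919%), 1 higher and 4 lower. Within 10 Mb of Ch25h 1 of 142 passed, Pyroxd2, an oxidoreductase-domain protein of mitochondria (chr19:42725858-42752775, minus strand, 8.25 Mb from Ch25h). It read 9.06, 4.92, 10.7 and 6.60 CPM in Ch25h+/+ Tau- (7.83 ± 2.58, SD, n = 4) and 2.43, 1.43, 2.39 and 2.31 CPM in Ch25h-/- Tau+ (2.14 ± 0.475, SD, n = 4). Every doubly altered library lay under the lowest baseline library, and the log2 fold change was -1.86 ± 0.23 (SE, adjusted p 0.000572). Side by side, Pyroxd2 was at -2.37 (adjusted p 0.000152) for Ch25h loss without tau and at 0.30 for tau with intact Ch25h. With the class covariate it was at -1.69 (adjusted p 0.992), and no single library left out ended its call. Gm6970, a processed pseudogene 12.7 Mb from Ch25h, had 0.0924 to 0.453 CPM at baseline and 1.29, 1.56, 1.02 and 0.749 CPM in Ch25h-/- Tau+, a log2 fold change of 2.37 ± 0.40 (SE, adjusted p 0.0256), beside 2.59 for Ch25h loss without tau. Gm6970 did not pass with the class covariate, at 2.53 (adjusted p 0.633). Its reads may be shared with other copies, and Pyroxd2 overlaps an antisense gene.

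**Figure D4:**
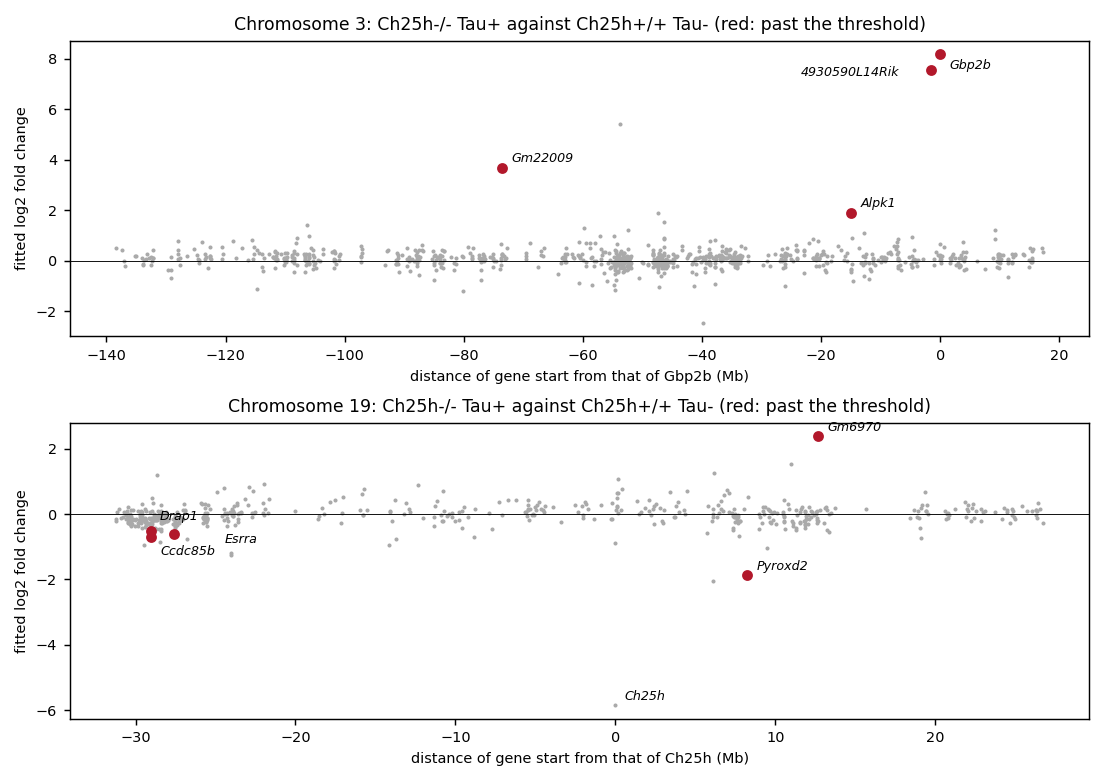
Fitted log2 fold change of Ch25h-/- Tau+ against Ch25h+/+ Tau- (vertical axis) by distance in Mb from Gbp2b on chromosome 3 and from Ch25h on chromosome 19 (horizontal axes), 1 point per tested gene, those past the threshold named. On chromosome 3 the 4 named genes lie above 0, and on chromosome 19 Pyroxd2 is the named gene nearest to Ch25h; values of genes with a group at 0 depend on the prior count.

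The other 3 genes of chromosome 19 lie far from Ch25h and changed by smaller folds. Esrra encodes the oestrogen-related receptor alpha, an orphan nuclear receptor that drives genes of mitochondrial energy metabolism, and lies at -27.6 Mb from Ch25h. It fell from 79.2, 83.7, 77.1 and 92.9 CPM to 65.5, 51.0, 53.4 and 49.96 CPM, a log2 fold change of -0.60 ± 0.11 (SE, adjusted p 0.0326). Ccdc85b, a coiled-coil protein (at -29.0 Mb), went from 123, 128, 131 and 155 CPM to 98.5, 75.6, 74.1 and 79.0 CPM, at -0.71 ± 0.13 (SE, adjusted p 0.0390). Drap1, the DR1-associated subunit of the transcriptional repressor NC2 (at -29.1 Mb), was at -0.51 ± 0.10 (SE, adjusted p 0.0390). In all 3 genes the groups did not overlap, and replicate 1 was the doubly altered library nearest to the baseline. With library sizes corrected for the genes' GC content Esrra still passed (-0.61, adjusted p 0.0490), while Ccdc85b (-0.63, adjusted p 0.0760) and Drap1 (-0.32, adjusted p 0.205) did not. Ccdc85b overlaps Fosl1, Drap1 an antisense gene and Esrra the gene Trmt112 on the opposite strand, and use of strand in counting is not given in the sources used here.

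The remaining named falls included genes of neuronal signalling. Gnas encodes the stimulatory G protein alpha subunit that couples receptors to adenylyl cyclase. It read 183, 208, 201 and 180 CPM at baseline and 163, 123, 121 and 124 CPM in Ch25h-/- Tau+, a log2 fold change of -0.54 ± 0.10 (SE, adjusted p 0.0352). Adra2c, the alpha-2C adrenergic receptor, read 37.9, 43.2, 38.3 and 43.7 CPM against 30.8, 26.4, 26.9 and 27.5 CPM, also at -0.54 (adjusted p 0.0352). In both genes the groups were separate, and replicate 1 stood highest among the doubly altered libraries. Camk2n2, an inhibitor of the synaptic kinase CaMKII, was at -0.54 ± 0.10 (SE, adjusted p 0.0387), and Ntng2, the presynaptic adhesion protein netrin-G2, at -0.44 ± 0.08 (SE, adjusted p 0.0352). Slc38a10, an amino acid transporter, was at -0.39 ± 0.07 (SE, adjusted p 0.0326), and the gene model Gm42517 at -0.35 ± 0.06 (SE, adjusted p 0.0256). With the GC correction none of the 6 passed: Gnas was at -0.40 (adjusted p 0.128), Camk2n2 at -0.30 (adjusted p 0.197), Adra2c at -0.27 (adjusted p 0.345), Slc38a10 at -0.25 (adjusted p 0.207), Ntng2 at -0.24 (adjusted p 0.361) and Gm42517 at -0.06 (adjusted p 0.774). Of these genes Adra2c alone overlaps no other annotated gene, and Gnas overlaps several at its imprinted locus, so part of the counts of the others may belong to their neighbours.

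Ch25h-/- Tau+ replicate 1 was the library nearest to the baseline mean in 10 of the 11 falls and in 4 of the 10 rises. Over all tested genes it was the nearest in 44.3%, and over the 2220 genes without overlap of the groups in 63.2%. With the class covariate none of the 11 falls passed in edgeR's test, in which 288 genes of either direction had an unadjusted p under 0.05. Their log2 fold changes in that fit stayed below 0, at -1.69 for Pyroxd2, -1.49 for Gm8210, -0.44 for Ccdc85b, -0.40 for Adra2c, -0.35 for Esrra, -0.34 for Ntng2, -0.33 for Slc38a10, -0.31 for Drap1, -0.27 for Camk2n2, -0.26 for Gm42517 and -0.25 for Gnas. Of the 8 fits that leave out 1 library, Pyroxd2 kept its call in all 8. Ntng2 and Gm8210 lost theirs in 6, and the other 8 falls, Gnas, Camk2n2, Ccdc85b, Drap1, Slc38a10, Gm42517, Esrra and Adra2c, in 7. The fit without replicate 1 was the one in which all 11 passed, Gnas for example at -0.66 (adjusted p 0.00117). Of the rises, CT010467.1, 9530059O14Rik and Gm22009 lost their call in 7 of these fits, Gm6970 in 5 and Alpk1 in 4, and the remaining 5 in none.

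Among the 10 rises, 3 were seen in the rRNA-rich libraries of the group and not in replicate 1. CT010467.1, the ribosomal transcript by which that class was set, read 154 CPM on normalized library sizes in replicate 1 and 3762, 3833 and 2352 CPM in replicates 2 to 4, against 169 to 282 CPM at baseline. The long noncoding RNA 9530059O14Rik of chromosome 9 read 0.704 CPM in replicate 1 and 7.21, 12.6 and 6.50 CPM in the others, against 0.475 to 1.01 CPM at baseline. The small Cajal body RNA Gm22009, inside an annotated Kpna4, was at 0.156 CPM in replicate 1 and at 2.56 to 2.60 CPM in the others, against 0.0547 to 0.231 CPM at baseline. Replicate 1 lay within the baseline range for the last 2 genes and just under it for CT010467.1. Their log2 fold changes were 3.61, 3.11 and 3.68 (adjusted p 0.0256, 0.0256 and 0.0387), and with the class covariate CT010467.1 was at -0.43, 9530059O14Rik at -0.12 and Gm22009 at 0.12.

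The last 2 genes past the threshold are processed pseudogenes at other places, whose reads may be shared with their parent genes. Gm5900 of chromosome 7 rose from 0.231, 0.0547, 0.129 and 0.101 CPM to 1.49, 1.75, 1.48 and 1.94 CPM, a log2 fold change of 3.59 ± 0.49 (SE, adjusted p 0.00204). Gm8210 of chromosome 1, antisense within Fhl2, fell from 3.79, 3.50, 2.11 and 3.83 CPM to 1.17, 0.195, 0.341 and 0.187 CPM, at -2.63 ± 0.43 (SE, adjusted p 0.0211). Both were separate between the groups, and for Gm8210 replicate 1 was again the nearest to the baseline. Neither passed with the class covariate, Gm5900 at 3.43 (adjusted p 0.177) and Gm8210 at -1.49 (adjusted p 0.9999).

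Interferon-stimulated genes mostly lay above the baseline by small amounts, and none of the 41 tested passed in edgeR's test. Gbp2b, the interferon-inducible gene past the threshold described above, is not in this list. Of the 41, 39 had a log2 fold change above 0 (52.3% over all genes), with a median of 0.43 beside 0.01 over all genes, and 13 had an unadjusted p under 0.05, all higher (31.7% of the list, beside 8.82% of all genes higher). DESeq2 called 1 of them and limma-voom 4. Parp14, an ADP-ribosyltransferase and the member with the smallest p, read 3.10, 2.95, 3.11 and 1.91 CPM at baseline and 4.19, 5.26, 3.69 and 4.75 CPM in Ch25h-/- Tau+ (log2 fold change 0.68 ± 0.18, SE, adjusted p 0.0891). The groups did not overlap for 5 of the 41 members, all higher (beside 5.8% of all genes higher), Parp14 and 4 others chosen after their values were seen: Gbp7, a guanylate-binding protein (0.66, adjusted p 0.1005), Ifi27l2a, an interferon-induced gene (1.32, adjusted p 0.145), Slfn5, of the Schlafen family (0.38, adjusted p 0.170) and Ddx58, the RNA sensor RIG-I (0.44, adjusted p 0.184). Isg15, the ubiquitin-like modifier whose promoter is given above, read 0.601, 1.64, 2.03 and 1.01 CPM against 2.07, 4.48, 1.19 and 2.19 CPM. Its libraries overlapped, and replicate 2 was the highest. Summed over the list, the 4 baseline libraries gave 196, 218, 238 and 202 CPM and the 4 Ch25h-/- Tau+ libraries 245, 306, 239 and 243 CPM, with Ch25h-/- Tau+ replicate 3 barely above the highest baseline library, while Ch25h+/+ Tau+ gave 359 to 519 CPM. The list's median was 1.33 for tau with intact Ch25h, with 29 members past the threshold, and 0.10 for Ch25h loss without tau. With the class covariate the double median was 0.31, with 34 of 41 above 0, and without Ch25h-/- Tau+ replicate 2 it was 0.25, with 35 of 41 above 0.

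**Figure D5:**
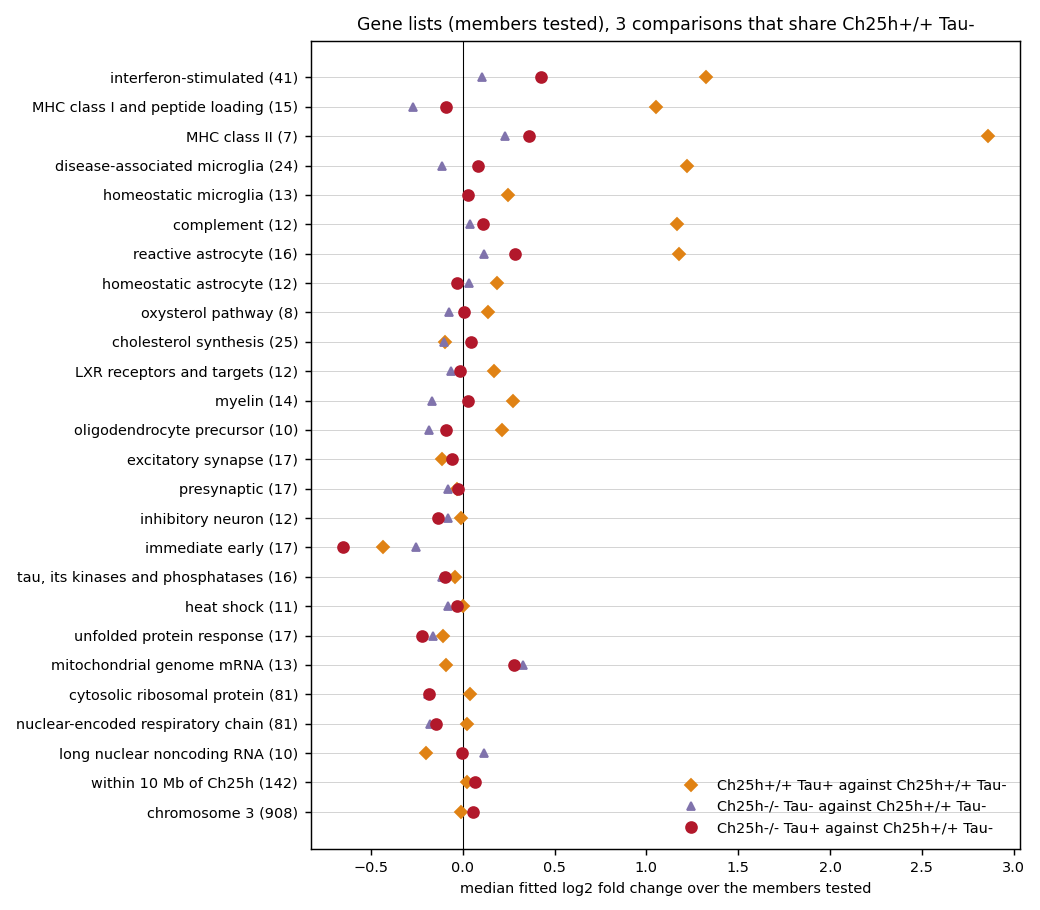
Median fitted log2 fold change over the tested members of each gene list (horizontal axis) in 3 comparisons that share the Ch25h+/+ Tau- libraries: tau with intact Ch25h (orange diamonds), Ch25h loss without tau (purple triangles) and both together (red circles). For interferon-stimulated genes the points are at 1.33, 0.10 and 0.43, and for MHC class II at 2.86, 0.23 and 0.36.

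Genes of MHC class II, which present peptides to CD4+ T cells, had 7 of 7 members above 0 with a median of 0.36, and 0 passed in edgeR's test, 0 at an unadjusted p under 0.05 and 0 with DESeq2 or limma-voom. Cd74, the invariant chain, read 6.10, 8.10, 5.74 and 4.53 CPM at baseline and 5.67, 8.97, 13.6 and 15.6 CPM in Ch25h-/- Tau+, with replicate 1 inside the baseline range. Its log2 fold change was 0.83 ± 0.42 (SE, adjusted p 0.299), and with the class covariate it was -0.10. The list's median was 0.08 with the class covariate, with 4 of 7 above 0, and 0.23 without Ch25h-/- Tau+ replicate 4, with 6 of 7 above 0. In Ch25h+/+ Tau+ Cd74 spanned 26.4 to 134 CPM. Genes of MHC class I and peptide loading had a median of -0.09 with 5 of 15 above 0, and 0 passed in edgeR's test (2 higher at an unadjusted p under 0.05, 0 with DESeq2, 1 with limma-voom). The list's median was -0.17 when Ch25h+/+ Tau- replicate 1 was left out, -0.14 when Ch25h-/- Tau+ replicate 2 was, and -0.01 with the GC correction (7 of 15 above 0). B2m, the class I light chain, read 60.8, 61.1, 73.4 and 65.5 CPM against 62.3, 97.6, 80.1 and 85.6 CPM, with replicate 1 again within the baseline range (0.32 ± 0.11, SE, adjusted p 0.165). With the class covariate B2m was at -0.07.

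Disease-associated microglial genes, a programme of lipid handling and phagocytosis that microglia adopt near aggregates, had a median of 0.08, with 15 of 24 above 0. Of these, 0 passed in edgeR's test, 4 were higher at an unadjusted p under 0.05, and 0 passed with DESeq2 or limma-voom. The median was -0.05 with the class covariate, with 10 of 24 above 0. Leaving out Ch25h-/- Tau+ replicate 2 gave 0.01, Ch25h+/+ Tau- replicate 1 gave 0.03 and Ch25h+/+ Tau- replicate 3 gave 0.16, and the fit of the 8 libraries alone gave 0.03. Replicate 2 stood out in 2 of the genes. Clec7a, a lectin receptor of activated microglia, read 0.0462 to 0.219 CPM at baseline and 0.391, 2.47, 0.227 and 0.312 CPM in Ch25h-/- Tau+ (log2 fold change 2.98 ± 0.81, SE, adjusted p 0.0979), and Cst7, a cystatin chosen after its values were seen, read 0.430, 3.96, 0.284 and 0.125 CPM there. Clec7a spanned 4.25 to 10.6 CPM in Ch25h+/+ Tau+. Apoe, the lipid carrier, was at -0.20 (adjusted p 0.378), beside 0.64 for tau with intact Ch25h. Among homeostatic microglial genes (median 0.03, 8 of 13 above 0) 0 passed in edgeR's test, 3 were higher and 1 lower at an unadjusted p under 0.05, DESeq2 called 1 higher and 1 lower, and limma-voom 3 higher and 1 lower. Tmem119, a surface marker of resident microglia, read 29.2, 26.3, 27.7 and 30.3 CPM against 21.9, 19.95, 21.9 and 23.8 CPM, without overlap (-0.37 ± 0.09, SE, adjusted p 0.0857). The 6 microglial markers summed to 254 to 272 CPM at baseline and 253 to 308 CPM in Ch25h-/- Tau+. In bulk tissue fewer cells of a type and less RNA per cell cannot be told apart.

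Complement genes had 7 of 12 members above 0 with a median of 0.11, and 0 passed in edgeR's test (2 higher at an unadjusted p under 0.05, 0 with DESeq2 or limma-voom). With the class covariate the complement median was 0.04, with 8 of 12 above 0. Leaving out single libraries gave medians of 0.05 (without Ch25h+/+ Tau- replicate 4) to 0.26 (without Ch25h-/- Tau+ replicate 1). C3ar1, the receptor of the fragment C3a, read 1.43, 1.91, 1.60 and 2.12 CPM at baseline and 2.19, 2.73, 2.61 and 2.94 CPM in Ch25h-/- Tau+, without overlap (0.56 ± 0.22, SE, adjusted p 0.200). Its value for tau with intact Ch25h was 1.86. Reactive astrocyte genes had 13 of 16 above 0 with a median of 0.28, and 0 passed in edgeR's test (3 higher at an unadjusted p under 0.05, 1 with DESeq2, 1 with limma-voom). Cp, the ferroxidase ceruloplasmin, read 12.1, 14.3, 12.9 and 10.9 CPM against 15.53, 15.98, 19.2 and 21.7 CPM (0.53 ± 0.17, SE, adjusted p 0.135). Gfap, the astrocytic intermediate filament, read 131, 161, 140 and 122 CPM against 189, 302, 156 and 139 CPM, with overlap and with replicate 2 the highest (0.50 ± 0.26, SE, adjusted p 0.312). Gfap was at 473 to 1312 CPM in Ch25h+/+ Tau+. Summed reactive astrocyte genes gave 221 to 268 CPM at baseline and 298, 430, 270 and 265 CPM in Ch25h-/- Tau+, and with the class covariate their median was 0.05 with 9 of 16 above 0. Leaving out Ch25h-/- Tau+ replicate 1 lowered the median to 0.17, and leaving out Ch25h-/- Tau+ replicate 2, Ch25h+/+ Tau- replicate 1 or Ch25h+/+ Tau- replicate 4 lowered it to 0.18. The 6 astrocyte markers summed to 3546 to 3855 CPM at baseline and 3937 to 4764 CPM in Ch25h-/- Tau+, without overlap, and their part in the reactive genes was not tested. That sum was mostly Slc1a2, a glutamate transporter (0.29, adjusted p 0.319), and the markers' median was 0.05 with 3 of 6 above 0. Homeostatic astrocyte genes had a median of -0.03, with 5 of 12 above 0 and 0 past the threshold in edgeR's test (2 higher at an unadjusted p under 0.05, 0 with DESeq2, 2 with limma-voom).

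Lists that make or respond to Ch25h's own product had medians near that of all genes. Oxysterol genes, which make, convert or sense hydroxylated cholesterol, had a median of 0.01 with 5 of 8 above 0, and in edgeR's test 0 passed, Ch25h alone being lower at an unadjusted p under 0.05 (0 with DESeq2, 1 lower with limma-voom). Cholesterol synthesis genes, targets of SREBP2 that 25-hydroxycholesterol represses, had a median of 0.04 with 13 of 25 above 0. In edgeR's test 0 passed, 4 were higher and 3 lower at an unadjusted p under 0.05, DESeq2 called 1 higher and 2 lower, and limma-voom 3 higher and 2 lower. Idi1, the isopentenyl-diphosphate isomerase, read 17.8, 14.8, 15.2 and 14.3 CPM at baseline and 19.4, 20.7, 20.8 and 21.7 CPM in Ch25h-/- Tau+, without overlap (0.41 ± 0.10, SE, adjusted p 0.0853). LXR receptors and targets had a median of -0.02 with 6 of 12 above 0, and 0 passed in edgeR's test (1 lower at an unadjusted p under 0.05, 1 lower each with DESeq2 and limma-voom). Nr1h2, the LXR beta receptor, read 72.4, 81.4, 79.8 and 94.8 CPM against 73.9, 59.5, 66.1 and 57.5 CPM, with replicate 1 in the baseline range (-0.35 ± 0.09, SE, adjusted p 0.0891). Abca1, the cholesterol exporter and an LXR target, was at 0.32 (adjusted p 0.338).

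Immediate early genes, switched on by neuronal activity within minutes, were at -0.65 in the median with 1 of 17 above 0, the lowest median of the lists, and 0 passed in edgeR's test (4 lower at an unadjusted p under 0.05, 1 lower each with DESeq2 and limma-voom). Egr3, a zinc finger factor, read 384, 278, 284 and 378 CPM at baseline and 251.4, 177, 243 and 237 CPM in Ch25h-/- Tau+, without overlap (-0.54 ± 0.15, SE, adjusted p 0.102). Arc, which binds at active synapses, read 959, 277, 322 and 1095 CPM against 534, 135, 152 and 485 CPM, with overlap (-1.02 ± 0.51, SE, adjusted p 0.299). Within each group 2 libraries were high and 2 low. Summed over the list, Ch25h+/+ Tau- libraries gave 4289, 2080, 1912 and 3816 CPM and Ch25h-/- Tau+ libraries 2829, 1250, 1279 and 2472 CPM. The median was -0.44 for tau with intact Ch25h and -0.25 for Ch25h loss without tau, and -0.08 in the double comparison with the class covariate. It was -0.42 without Ch25h+/+ Tau- replicate 1, with 2 of 17 above 0, and -0.92 to -0.42 over the single libraries left out.

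Synaptic lists had medians of -0.06 for excitatory synapse genes (7 of 17 above 0), -0.03 for presynaptic genes (7 of 17) and -0.13 for inhibitory neuron genes (3 of 12), beside 0.01 over all genes. The class covariate gave 0.02 (9 of 17 above 0), -0.01 (6 of 17) and -0.13 (0 of 12) in the same order, and the GC correction 0.03 (10 of 17), -0.01 (7 of 17) and -0.06 (3 of 12). The excitatory median ran from -0.10 (Ch25h+/+ Tau- replicate 3 left out) to -0.015 (Ch25h+/+ Tau- replicate 1 left out), and the presynaptic one from -0.06 to -0.02. The inhibitory median was -0.07 without Ch25h-/- Tau+ replicate 3. In edgeR's test 0 of them passed. The 7 markers of excitatory cortical neurons summed to 2255 to 2374 CPM at baseline and 1961 to 2169 CPM in Ch25h-/- Tau+, without overlap, and their part in these values was not tested. That sum was mostly Slc17a7, the vesicular glutamate transporter (-0.24, adjusted p 0.128), and the markers' median was 0.01 with 4 of 7 above 0. Of the excitatory genes 3 were higher and 4 lower at an unadjusted p under 0.05 (DESeq2 1 and 4, limma-voom 2 and 4), of the presynaptic genes 1 and 1 (DESeq2 0 and 0, limma-voom 0 and 2), and of the inhibitory genes 0 and 3 (DESeq2 0 and 1, limma-voom 0 and 3). Gria3, an AMPA receptor subunit, read 222, 219, 211 and 202 CPM at baseline and 253, 272, 240 and 264 CPM in Ch25h-/- Tau+ (0.27 ± 0.07, SE, adjusted p 0.0958), without overlap. Slc32a1, the vesicular GABA transporter, was lower without overlap (-0.37 ± 0.10, SE, adjusted p 0.0896), and Stx1a, the presynaptic SNARE syntaxin 1A, read 383, 399, 374 and 385 CPM against 385, 292, 286 and 303 CPM (-0.28 ± 0.10, SE, adjusted p 0.157). For Stx1a replicate 1 lay in the baseline range and the other 3 under it. Among tau, its kinases and phosphatases (median -0.10, 4 of 16 above 0) 0 passed in edgeR's test, 1 was higher and 5 lower at an unadjusted p under 0.05, DESeq2 called 1 higher and 3 lower, and limma-voom 1 higher and 5 lower. Cdk5r2, the p39 activator of the tau kinase Cdk5, read 587, 648, 591 and 597 CPM against 546, 422, 380 and 438 CPM, without overlap (-0.44 ± 0.10, SE, adjusted p 0.0790).

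Genes of protein folding were read in a list of the endoplasmic reticulum and in a list of mostly cytosolic chaperones. Unfolded protein response genes, which relieve the endoplasmic reticulum, had a median of -0.22 with 2 of 17 above 0, and 0 passed in edgeR's test (6 lower at an unadjusted p under 0.05, 2 lower each with DESeq2 and limma-voom). The list's median was -0.12 with the class covariate, with 4 of 17 above 0. Creld2, a disulphide isomerase of that compartment, read 19.5, 16.2, 16.6 and 24.0 CPM at baseline and 14.1, 10.5, 15.46 and 11.1 CPM in Ch25h-/- Tau+, without overlap (-0.57 ± 0.14, SE, adjusted p 0.0853). Heat shock genes had a median of -0.03 with 3 of 11 above 0, and 0 passed in edgeR's test (1 higher and 1 lower at an unadjusted p under 0.05, 1 higher each with DESeq2 and limma-voom). Hspa4l, an Hsp110-family nucleotide exchange factor, read 167, 167, 152 and 147 CPM against 172, 213, 213 and 219 CPM (0.37 ± 0.09, SE, adjusted p 0.0891). For Hspa4l replicate 1 was barely above the baseline range.

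Transcripts of the mitochondrial genome lay above the baseline in 11 of 13 cases, with a median of 0.28, and 0 passed in edgeR's test (8 higher and 2 lower at an unadjusted p under 0.05, 3 higher with DESeq2, 9 higher with limma-voom). mt-Nd4, a subunit of complex I, read 2252, 2053, 2534 and 2535 CPM at baseline and 2265, 3274, 3252 and 3648 CPM in Ch25h-/- Tau+ (0.41 ± 0.12, SE, adjusted p 0.113). Replicate 1 lay in the baseline range and the rRNA-rich replicates above it, and with the class covariate the list's median was -0.10 with 2 of 13 above 0. With the GC correction it was 0.07, with 10 of 13 above 0. Nuclear-encoded respiratory chain genes lay the other way, with a median of -0.15 and 16 of 81 above 0, and 0 passed in edgeR's test (23 lower and 0 higher at an unadjusted p under 0.05, 6 lower with DESeq2, 25 lower and 1 higher with limma-voom). In other edgeR fits members of it did pass, all lower: 8 of 81 in the fit of the 8 libraries alone, 11 of 81 without Ch25h-/- Tau+ replicate 1 and 5 of 83 among all genes with at least 1 count. Uqcr11, a complex III subunit, read 54.1, 56.1, 56.2 and 64.8 CPM against 45.3, 31.6, 37.7 and 35.3 CPM (-0.62 ± 0.13, SE, adjusted p 0.0679). Of the 81, 24 were lower without overlap, beside 6.72% of all genes. Cytosolic ribosomal protein genes had a median of -0.18 with 12 of 81 above 0, and 31 were lower without overlap. In edgeR's test 0 of them passed (28 lower and 3 higher at an unadjusted p under 0.05, 11 lower and 2 higher with DESeq2, 23 lower and 1 higher with limma-voom). The fit of the 8 libraries alone called 13 of 80 ribosomal genes lower, the one without Ch25h-/- Tau+ replicate 1 called 9 of 81 lower, and that of all genes with at least 1 count 8 of 83 lower and 2 higher. Rpl13a, a large-subunit protein, read 14.2, 16.5, 16.7 and 18.9 CPM against 13.6, 10.3, 12.3 and 9.87 CPM (-0.52 ± 0.12, SE, adjusted p 0.0849). With the class covariate the medians were -0.10 for the mitochondrial list, -0.12 for the respiratory chain and -0.13 for ribosomal proteins. That fit sets Ch25h-/- Tau+ replicate 1 alone against the baseline. For Ch25h loss without tau the medians were 0.33, -0.18 and -0.19 in the same order. The part of library class in these values was not tested.

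Myelin genes had a median of 0.03 with 8 of 14 above 0, and 0 passed in edgeR's test (2 higher at an unadjusted p under 0.05, 0 with DESeq2 or limma-voom). Aspa, the aspartoacylase of oligodendrocytes, read 9.75, 11.3, 12.3 and 9.67 CPM at baseline and 13.3, 14.5, 14.3 and 14.9 CPM in Ch25h-/- Tau+, without overlap (0.40 ± 0.15, SE, adjusted p 0.182). The myelin median had no stable sign. It was 0.24 with the class covariate (14 of 14 above 0), -0.06 when Ch25h-/- Tau+ replicate 1 (6 of 14) or Ch25h+/+ Tau- replicate 1 (5 of 14) was left out, -0.02 with limma-voom and 0.13 when Ch25h-/- Tau+ replicate 3 was left out (12 of 14). Oligodendrocyte precursor genes had a median of -0.09 with 4 of 10 above 0, and 0 passed in edgeR's test (1 lower at an unadjusted p under 0.05, 0 with DESeq2 or limma-voom). Single libraries left out moved that median from -0.20 (Ch25h-/- Tau+ replicate 1) to -0.02 (Ch25h+/+ Tau- replicate 2), and with the GC correction it was 0.08, with 6 of 10 above 0. Olig2, the lineage's transcription factor, was at -0.38 (adjusted p 0.219). Long nuclear noncoding RNAs had a median of -0.00 with 5 of 10 above 0, and 0 passed in edgeR's test (2 higher at an unadjusted p under 0.05, 1 with DESeq2, 2 with limma-voom). The list's median was 0.14 with the class covariate, with 9 of 10 above 0. Over the single libraries left out the median was lowest for Ch25h+/+ Tau- replicate 3, at -0.11, and highest for Ch25h+/+ Tau- replicate 4, at 0.09. Malat1 read 237 CPM in replicate 1 and 622, 645 and 638 CPM in the rRNA-rich replicates, against 181 to 291 CPM at baseline (1.19 ± 0.27, SE, adjusted p 0.0846).

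The remaining lists had these medians with the class covariate: -0.07 for MHC class I and peptide loading (5 of 15 above 0), 0.04 for homeostatic microglia (7 of 13), -0.01 for homeostatic astrocytes (5 of 12) and -0.02 for oligodendrocyte precursors (5 of 10). For cholesterol synthesis the value was -0.02 (10 of 25), for LXR receptors and targets 0.01 (8 of 12), for oxysterol genes -0.00 (4 of 8), for tau, its kinases and phosphatases -0.04 (3 of 16) and for heat shock genes -0.01 (5 of 11). Genes within 10 Mb of Ch25h had a median of 0.07 (84 of 142 above 0), and of -0.004 (69 of 142) with the class covariate. Genes of chromosome 3 were at 0.06 (547 of 908) and 0.02 (494 of 908) in the same order. Medians of the cholesterol synthesis, LXR, oxysterol, excitatory synapse, disease-associated microglia, mitochondrial genome and long nuclear noncoding RNA lists changed sign in that fit. So did the median of the genes within 10 Mb of Ch25h. Small medians moved with single libraries too. Homeostatic microglia ran from -0.02 (Ch25h-/- Tau+ replicate 2 left out) to 0.14 (Ch25h+/+ Tau- replicate 3), cholesterol synthesis from -0.01 to 0.08, LXR genes from -0.05 to 0.01, oxysterol genes from -0.04 to 0.04, homeostatic astrocytes from -0.07 to -0.01 and heat shock genes from -0.06 to -0.02. Leaving out Ch25h-/- Tau+ replicate 1 let 5 of the 13 mitochondrial genome transcripts pass, all higher, and 4 of the 16 genes of tau, its kinases and phosphatases, 1 higher and 3 lower. In that fit 2 of the 41 interferon-stimulated genes and 2 of the 24 disease-associated microglial genes passed, all higher. Homeostatic microglial genes then had 2 higher and 1 lower of 13, and excitatory synapse genes 1 higher and 2 lower of 17. Inhibitory neuron genes had 2 lower of 12, and unfolded protein response genes 2 lower of 17.

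Markers of other regions and cells were read in each library, with no test of their sums. Striatum markers summed to 250, 254, 370 and 289 CPM at baseline and to 211, 192, 226 and 227 CPM in Ch25h-/- Tau+, so the doubly altered libraries were all lower, and 8 of 8 markers had a log2 fold change below 0, with a median of -0.44 and 5 at an unadjusted p under 0.05. Against the same baseline the striatal median was -0.30 for tau with intact Ch25h and -0.36 for Ch25h loss without tau. The sums were 193 to 256 CPM in Ch25h+/+ Tau+ and 243 to 283 CPM in Ch25h-/- Tau-, so lower values were not particular to the doubly altered group. Adora2a and Drd2, receptors of striatal projection neurons chosen after their values were seen, were at -1.84 (adjusted p 0.0679) and -1.54 (adjusted p 0.0891) in the double comparison. Markers of excitatory cortical neurons, which define the labelled tissue, were present in all 8 libraries. Hippocampus markers, summed over 7 genes, gave 34.7 to 62.8 CPM against 37.0 to 41.9 CPM. The widest range was that of choroid plexus markers, 18.4 to 1490 CPM at baseline and 59.9 to 2875 CPM in Ch25h-/- Tau+, with low and high libraries in each group. All 12 had a log2 fold change above 0, with a median of 0.81, and 0 had an unadjusted p under 0.05. A covariate for them left 19 of the 21 genes past the threshold. Border macrophage markers (8 of 8 above 0, median 0.22) gave 6.20 to 14.9 CPM against 8.68 to 16.1 CPM, and blood markers (5 of 5 above 0, median 0.35) gave 2.32 to 24.9 CPM against 10.4 to 25.4 CPM, both with overlap and 0 at an unadjusted p under 0.05. Thalamus markers (5 of 5 above 0, median 0.19) gave 49.3 to 69.9 CPM against 64.7 to 80.1 CPM, and endothelial markers 264 to 294 CPM against 269 to 334 CPM. T cell markers gave 10.3 to 11.95 CPM against 7.10 to 12.9 CPM, and the defining Cd3e, Cd3d, Cd3g and Cd8a had at most 4, 1, 3 and 2 counts in any of the 8 libraries. The part of the striatal difference in the falls above was not tested.

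The doubly altered group can also be set against what the single alterations would give if their log2 effects added. The difference from that sum, the interaction of genotype and tau, passed for 6 genes (0.0338%), all below the sum, and 733 genes had an unadjusted p under 0.05. They were Ctss, the lysosomal protease cathepsin S (-1.19 ± 0.16, SE, adjusted p 0.0131), H2-D1, a class I heavy chain (-0.84, adjusted p 0.0222), C1qa, of the complement initiator C1q (-1.26, adjusted p 0.0222), Lag3, an inhibitory immune receptor (-1.29, adjusted p 0.0335), Cd74 (-3.41, adjusted p 0.0405) and Rps27rt, a ribosomal protein gene with close copies (-2.90, adjusted p 0.0222). H2-D1 spanned 51.3 to 62.6 CPM in Ch25h+/+ Tau- and 51.8 to 56.9 CPM in Ch25h-/- Tau+, against 111 to 132 CPM in Ch25h+/+ Tau+. C1qa spanned 40.1 to 53.2 CPM and 32.6 to 47.0 CPM, against 97.2 to 146 CPM. Ctss spanned 39.1 to 45.1 CPM and 44.1 to 62.0 CPM, against 90.7 to 124 CPM. In all 3 genes the doubly altered libraries overlapped the baseline and lay under every library with tau and intact Ch25h. The double log2 fold changes of the 6 lay between -0.44 (Rps27rt) and 0.83 (Cd74), and none passed. The count of 6 fell to 0 when Ch25h-/- Tau+ replicate 3 or replicate 4 was left out (716 and 771 genes at an unadjusted p under 0.05), was 12 without replicate 2 and 3 without any 1 of Ch25h+/+ Tau- replicates 2, 3 and 4. Compared directly with Ch25h+/+ Tau+, the doubly altered group differed in 629 genes (3.55%), 426 of them lower (2.4%), including 17 of the 41 interferon-stimulated genes, 18 of the 24 disease-associated microglial genes and 13 of the 15 genes of MHC class I and peptide loading.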

How the data were processed

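RNA extraction used a PureLink kit and library construction a SMARTER mRNA-Seq kit, per the labels' protocols. STAR 2.7 and the build GRCm38 (mm10) are named per the submitters' processing notes; the counting program, annotation and use of strand are not given in the sources used here. The authors deposited raw counts per gene, with 54532 table entries, 105 repeated symbols and 27 symbols turned into dates, not normalized. Positions came by symbol from GENCODE M21 (98.7% of symbols matched) and promoters from RefSeq (15 of the 21 called genes).

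All 16 libraries entered 1 edgeR 4.0.16 fit in R 4.3.3 (TMM, filterByExpr, quasi-likelihood F test, two-sided, Benjamini-Hochberg adjustment at 0.05), with the 2 groups contrasted. SE is the log2 fold change over the square root of F. CPM use TMM-scaled library sizes unless total counts are stated. Folds against a group at 0 use 3 counts per library. In data simulated for this comparison (17471 genes) the fit recovered 56% of 1.5-fold and 99% of 3-fold changes, with 6 false calls. The changed genes all had a mean of at least 50 counts. The simulated libraries shared 1 mean profile, without library class or GC trend, so these rates may not hold for the real libraries.

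The members and the gene lists were chosen with earlier results of these data known. Named were called genes whose 2 groups did not overlap, with 1 or more as mean log2 CPM (up to 10 per direction), Ch25h, Prnp, Mapt and, per list, up to 3 members past the threshold or else the one with the smallest p. All others (the called pseudogenes, CT010467.1, 9530059O14Rik, Gm22009, and those said so) were chosen after their values were seen. Alternatives were RLE size factors, other filters, DESeq2 1.42.0, limma-voom (limma 3.58.1), a fit of the 8 libraries, a class covariate, GC-corrected offsets, 1 surrogate variable (sva 3.50.0), the rRNA-poor class alone, thinned counts, a choroid plexus covariate and leaving out each of the 8 libraries.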

Additional observations from a re-analysis of the deposited data

Results flagged for a closer look

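In the compared groups 12 of 98 sets of 4 libraries had a library far from the other 3 by Dixon's ratio. For independent, unselected sets chance gives this in about 1 in 20. These sets belong to genes mostly named from results of the same data, and they share the split by library class, so that rate is no yardstick. Of the 12 outlying libraries, 6 were Ch25h-/- Tau+ replicate 1. It was the highest of its group for Gnas (163 CPM) and Gm8210 (1.17 CPM), and the lowest for Hspa4l (172 CPM), Malat1 (237 CPM), Gbp2b (1.06 CPM) and Gm22009 (0.156 CPM). Ch25h-/- Tau+ replicate 2 was the highest for Alpk1 (21.4 CPM) and Clec7a (2.47 CPM) and the lowest for Pyroxd2 (1.43 CPM). In Ch25h+/+ Tau-, replicate 4 was low for Parp14 (1.91 CPM), replicate 2 high for Cdk5r2 (648 CPM) and replicate 1 high for Lag3 (11.3 CPM).

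The effect of tau differed between the Ch25h genotypes, by the interaction term of edgeR's quasi-likelihood test, for 6 genes. The log2 effect in Ch25h-/- minus that in Ch25h+/+ was -0.84 for H2-D1, -1.26 for C1qa, -1.19 for Ctss, -3.41 for Cd74, -2.90 for Rps27rt and -1.29 for Lag3.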

How the results depend on the processing

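No paired analysis was possible because replicates were numbered in accession order and no label pairs libraries across groups. The 21 genes past the threshold (10 higher, 11 lower) became 321 (115 and 206) with no filter beyond 1 count, 11 (4 and 7) with a mean of at least 50 counts, 739 (228 and 511) with DESeq2, 2104 (887 and 1217) with limma-voom, 441 (151 and 290) with the 8 libraries alone, 4 (4 and 0) with the class covariate, 12 (9 and 3) with GC-corrected offsets and 1 (1 and 0) within the rRNA-poor class, where replicate 1 is the lone Ch25h-/- Tau+ library and is assumed to vary like the other groups. Leaving out single libraries gave 6 to 985 genes, 5 to 330 higher and 1 to 655 lower; the 985 came without Ch25h-/- Tau+ replicate 1 and held all 21. DESeq2's calls held 12 of the 21, and those of limma-voom all 21. The 6 genes of the interaction became 57 with no filter beyond 1 count, 55 with DESeq2, 3 with the class covariate, 11 with 1 surrogate variable, 11 with the choroid plexus covariate and 0 to 12 when single libraries were left out. It could not be fitted with the 8 libraries alone or within the rRNA-poor class. With RLE size factors the double count was 22, with 1 surrogate variable 20, with thinned counts 27 and with the choroid plexus covariate 19. Of the named genes, Prnp passed in all 20 settings, Pyroxd2, Lamr1-ps1, Gbp2b and 4930590L14Rik in 17 and Alpk1 in 14. Signs turned with the class covariate and within the rRNA-poor class for B2m (-0.066 and -0.064), Cd74 (-0.10 and -0.10), mt-Nd4 (-0.049 and -0.048), CT010467.1 (-0.43 and -0.42) and 9530059O14Rik (-0.12 and -0.13), and within that class for Stx1a (8.89e-05); the cause was not tested. The class covariate and the rRNA-poor class both set Ch25h-/- Tau+ replicate 1 alone against the baseline, so they are not independent settings. Depth limits Ch25h, at 5 to 10 counts per baseline library.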
